A study of Mus musculus with 4 samples.

Results

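The response of cultured mouse mammary cells to baicalin was compared between cells labelled basal and cells labelled luminal, gene by gene. A change is log2((baicalin FPKM + 1)/(DMSO FPKM + 1)), where FPKM is fragments per kilobase of exon scaled to library depth. The difference of response, D, is the change in the luminal-labelled libraries minus the change in the basal-labelled libraries, so that a positive D marks a gene that went further up, or less far down, in the luminal-labelled libraries. The deposited table lists 54446 genes, of which 17787 had an FPKM above 0 in all 4 libraries and 9154 of these reached 5 FPKM in at least 1 library. At that level 574 genes had a D above 1 (6.27% of the 9154) and 268 had a D below -1 (2.93%). Together with the genes that moved in opposite directions or in 1 label only, as defined beside their counts, 876 genes are described. A D of 1 means that the fold changes of the labels differed by a factor of 2, on a scale that holds low genes near 0 because 1 FPKM was added.

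The cells came from the mammary gland of wild type C57BL/6 mice, were separated by flow cytometry into a basal and a luminal fraction, and were grown as 3D cultures in Matrigel. Each fraction was kept in medium with EGF and either DMSO, the control, or 100 μM baicalin, the main flavonoid of Scutellaria roots. One library was made per condition, so no p-value is given for any gene, and a difference between 2 libraries of different cultures cannot be told apart from a difference between the treatments. The labels do not say how many animals stand behind a library. Between 19354268 and 20647778 fragments lay behind each library, recovered from the steps in the FPKM values. From these fragments the ratio of ratios was computed, the baicalin over DMSO ratio in the luminal-labelled libraries over that in the basal-labelled libraries, with an exact 95% interval that covers counting error only. That interval excluded 1 for 554 of the 574 genes with a D above 1 and for 224 of the 268 genes with a D below -1. The same libraries chose these genes by their D, so the intervals are no separate support for D.

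The mammary duct has an outer basal layer, whose cells contract, rest on the basement membrane and carry keratins 5 and 14 and the transcription factor p63, and an inner luminal layer with keratins 8 and 18, which responds to hormones and makes milk. Keratins 6, 16 and 17 appear in stratified epithelia that are wounded or stressed, together with inflammatory cytokines, matrix metalloproteinases and proteins of the cornified envelope. Interferon-stimulated genes, chemokines and MHC class I genes form the antiviral and inflammatory answer of epithelial cells, while mitotic and sterol-synthesis genes serve growing cells.

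The 10 basal and 10 luminal marker genes went against the labels, while hormone-sensing genes were mixed. All 10 basal markers, among them Krt5, Krt14, Trp63 and Acta2, were higher in the luminal-labelled library than in the basal-labelled library, with DMSO and with baicalin alike. All 10 luminal markers, among them Krt8, Krt18 and Epcam, were higher in the basal-labelled libraries in both treatments. The summed basal markers had 1665 FPKM with DMSO and 433 with baicalin in the basal-labelled libraries, and 5076 and 6114 in the luminal-labelled ones. The summed luminal markers had 4550 and 3260 FPKM against 1411 and 1225. The hormone receptors of luminal cells were low, with Esr1 at 0.992 and 0.982 FPKM against 1.44 and 0.723, and Pgr at 1.08 and 0.912 against 4.81 and 2.09. With DMSO these receptors went with the labels, as did Foxa1, with 1.80 FPKM in the basal-labelled library and 9.30 in the luminal-labelled one. Ly6a went against them, at 50.6 and 28.0. The 9 hormone-sensing genes tested summed to 138 FPKM with DMSO in the basal-labelled library and 77.9 in the luminal-labelled one. Whether the labels were exchanged was not tested, and an exchange would turn the sign of every D. Basal and luminal are therefore used below only as labels of libraries. Whether a lower level came from fewer cells of a type or from less RNA per cell cannot be told apart in RNA from whole cultures. Markers of cells outside the epithelium were low, with 10 fibroblast markers summing to between 3.39 and 11.8 FPKM and 10 endothelial markers to between 1.89 and 7.81. Of 10 immune markers, 7 stayed under 1 FPKM in every library and Ptprc, the leukocyte antigen CD45, had at most 0.0138 FPKM. Their sum of 6.01 to 54.6 FPKM was mostly Cd68, a lysosomal protein, and Lyz2, a lysozyme with a near-identical copy, Lyz1.

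Promoters of 7 members are shown for short sequence motifs that the choice of genes did not use. They were picked because they hold a match, and other members of each group, such as Plk1 and Oasl2, had none in the same stretch. Each stretch holds the 150 bases before a RefSeq transcription start on GRCm38.p6, 5′ to 3′ on the strand of the gene. The first 4 belong to genes lower with baicalin in the basal-labelled libraries and higher in the luminal-labelled ones, and their capitals mark TGANTCA, the site of AP-1, a dimer of Fos and Jun family proteins.

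Mmp3, chr9:7445672-7445821, plus strand: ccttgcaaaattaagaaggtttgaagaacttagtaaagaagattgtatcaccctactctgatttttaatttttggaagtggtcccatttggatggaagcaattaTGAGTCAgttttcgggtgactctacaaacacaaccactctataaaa

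Mmp10, chr9:7502192-7502341, plus strand: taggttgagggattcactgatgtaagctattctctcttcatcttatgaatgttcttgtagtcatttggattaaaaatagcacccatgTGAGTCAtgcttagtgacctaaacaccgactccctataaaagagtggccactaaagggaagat

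Mmp13, chr9:7272364-7272513, plus strand: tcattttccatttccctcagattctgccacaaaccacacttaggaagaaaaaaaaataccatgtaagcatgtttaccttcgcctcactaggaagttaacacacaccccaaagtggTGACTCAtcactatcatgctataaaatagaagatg

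Il1a, chr2:129309973-129310122, minus strand: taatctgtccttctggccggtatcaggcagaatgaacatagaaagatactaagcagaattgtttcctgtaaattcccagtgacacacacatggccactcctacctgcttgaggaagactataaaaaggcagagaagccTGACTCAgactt

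Among interferon-stimulated genes, capitals mark GAAA, 2 bases of any kind and GAAA, on either strand, the core of the interferon-stimulated response element. Overlapping matches run together in Isg15, and in Ifit1 the matches lie on the other strand.

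Isg15, chr4:156200819-156200968, minus strand: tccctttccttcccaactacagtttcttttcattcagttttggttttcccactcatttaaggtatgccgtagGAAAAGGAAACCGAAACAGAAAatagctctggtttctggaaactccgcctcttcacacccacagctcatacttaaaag

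Ifit1, chr19:34640739-34640888, plus strand: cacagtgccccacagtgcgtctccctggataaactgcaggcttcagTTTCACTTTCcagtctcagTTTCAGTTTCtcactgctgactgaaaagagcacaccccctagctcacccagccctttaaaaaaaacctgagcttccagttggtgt

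For the mitotic gene Cdc20, capitals mark TTTGAA, the core of the cell cycle homology region found in promoters of genes expressed late in the cell cycle.

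Cdc20, chr4:118437344-118437493, minus strand: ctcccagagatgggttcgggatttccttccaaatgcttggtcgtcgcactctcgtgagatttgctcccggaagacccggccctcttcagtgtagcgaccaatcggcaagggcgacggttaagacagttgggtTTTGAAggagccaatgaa

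Motifs were counted on both strands over 300 bases, 250 before and 50 after each start, in 32544 promoters of 26742 genes. Several starts of a gene can overlap, so a gene is counted once if any of its promoters held the motif. The AP-1 letters stood in 8.97% of all genes with a promoter and in 10 of the 25, or 40.0%, found among the 38 genes that moved in opposite directions with the luminal-labelled libraries higher. Among the 33 promoters of these 25 genes, 21 lacked the letters. Of genes higher only in the luminal-labelled libraries 6 of 48 held them, and of the 23 lower only there 0 did. Of genes lower only in the basal-labelled libraries 8 of 64 did. The letters also stood in 5 of 21 NRF2 targets, which are antioxidant and detoxifying genes. They stood in 6 of 28 interferon-stimulated genes, 2 of 7 guanylate-binding proteins and related GTPases and 0 of 25 mitotic genes. The interferon motif stood in 4.0% of all genes, in 14 of 28 interferon-stimulated genes, in 7 of 7 guanylate-binding proteins and related GTPases, and in 11 of 64 genes lower only in the basal-labelled libraries. TTTGAA stood in 20.1% of all genes and in 20 of 25 mitotic genes. CCAAT, a box bound by NF-Y, stood in 41.0% of all genes, in 22 of 25 mitotic genes and in 16 of 16 sterol-synthesis genes. A match is a description of letters and not of a bound site. Krt6a, Ccl2, Stmn2 and Ly6a had no promoter entry.

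Across the 9154 genes the changes in both labels had a Pearson r of 0.39 and a Spearman rho of 0.39, a description over genes that share the 4 libraries and are not independent. Of the 574 genes with a D above 1, 343 had changes of opposite sign, 174 were lower with baicalin in both labels and 57 were higher in both. The change in the basal-labelled libraries was the larger one for 353 of them, and 298 were lower there by more than 1, where 5.03% of the 9154 genes were. In the luminal-labelled libraries 180 were higher by more than 1, where 3.93% of the 9154 were. With DMSO, 382 of the 574 genes were higher in the basal-labelled library, where 4835 of the 9154 were. With baicalin 448 of the 574 were higher in the luminal-labelled library, where 3941 of the 9154 were. For 21 of the 574 this order turned with a gap of more than 1 on both sides. Among the 268 genes with a D below -1, 222 were higher in the luminal-labelled library with DMSO, where 4319 of the 9154 were. With baicalin 178 of the 268 were higher in the basal-labelled library, where 5213 of the 9154 were. Of the 268, 2 turned their order by that measure. The DMSO libraries enter both D and these gaps, so the turn in order is no separate support for D.

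The genes that moved in opposite directions, past 1 in both labels, were almost all of one kind. There were 38 genes lower with baicalin in the basal-labelled libraries and higher in the luminal-labelled ones, 0.415% of the 9154, and 3 genes with the reverse, 0.0328%. Of the 38 genes 36 were protein-coding, close to the share over all genes, 8554 of the 9154. The 38 held stress keratins, kallikrein proteases, matrix metalloproteinases, interleukin 1 genes, chemokines and genes of the cornifying epidermis. With DMSO 25 of the 38 were higher in the basal-labelled library, where 4835 of the 9154 were. With baicalin 34 were higher in the luminal-labelled library, where 3941 of the 9154 were. The same libraries define the class, so this order is no separate result. Of the 38 genes, 32 had at least 10 fragments in every library, 33 reached 10 FPKM in a library, and 5 were past 2 in both labels. The marker genes of the comparison, Krt6a, Krt17, Ccl2 and Nt5e, were all 4 among them. These markers were set in advance for this difference, so their place in the class is no separate support.

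**Figure D1:**
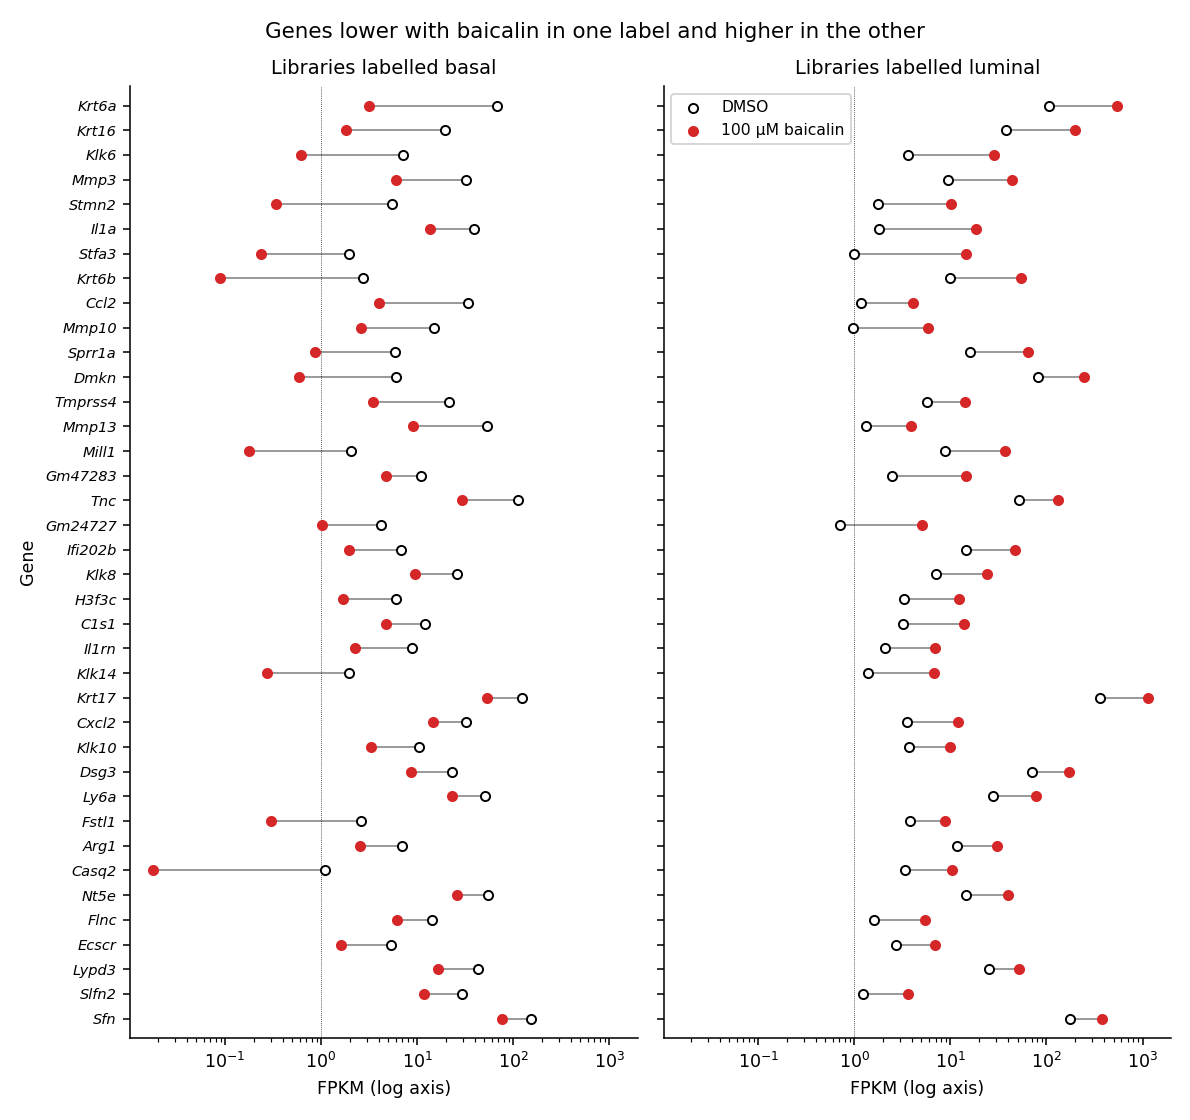
FPKM on a log axis of the 38 genes lower with baicalin in the basal-labelled libraries (left panel) and higher in the luminal-labelled ones (right panel), 1 library per point, open for DMSO and red for 100 μM baicalin, ordered by D. Krt6a at the top went from 67.3 to 3.14 FPKM on the left and from 107 to 539 on the right.

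Krt6a (ENSMUSG00000058354, GRCm38 chromosome 15, 101689910 to 101694307), a keratin of wounded epidermis, had the highest D of all genes. It had 67.3 FPKM with DMSO and 3.14 with baicalin in the basal-labelled libraries, and 107 and 539 in the luminal-labelled ones. Its D was 6.36 and its ratio of ratios 108, with a counting interval of 91.3 to 128. Krt6b, the neighbouring near-identical copy, had 2.75 and 0.0882 FPKM against 9.82 and 54.0, a D of 4.13, and the split of fragments between Krt6a and Krt6b is uncertain. Only 4 fragments lay behind Krt6b in the basal-labelled baicalin library. Krt16 (ENSMUSG00000053797, chromosome 11, 100246091 to 100248902), a type I partner of keratin 6, had 19.5 and 1.83 FPKM against 37.9 and 200, a D of 5.23, and shares sequence with the pseudogene Gm11597. Krt17, which lies beside Krt16 on chromosome 11 and is also induced in injured epithelium, had 122 and 53.1 FPKM against 358 and 1140, a D of 2.86. In all 4 genes the luminal-labelled library was already the higher one with DMSO, by 0.67 for Krt6a and 0.92 for Krt16 on the log2 scale with 1 FPKM added, and the gap with baicalin was 7.03 and 6.15.

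Among 7 stress and basal keratins, 6 had a D above 1, against 4.41% of all genes tested, and their median D was 4.13, against -0.03 over all 17787. Krt5, the type II keratin of basal cells, did not turn. It had 128 FPKM with DMSO and 3.01 with baicalin in the basal-labelled libraries but 2015 and 2415 in the luminal-labelled ones, a D of 5.27 that came from the basal-labelled libraries. Krt14, its partner, had 1494 and 417 FPKM against 2308 and 3132. The exception was Krt15, a keratin of quiescent basal cells, with 0.485 and 0.725 FPKM against 42.6 and 4.00, a D of -3.34. Trp63, which encodes p63, had 6.01 and 0.305 FPKM against 25.2 and 27.0. It was lower beside 6 of the 7 keratins in the basal-labelled libraries, but changed by only 0.09 in the luminal-labelled ones. Of the 10 basal markers, 9 were lower with baicalin in the basal-labelled libraries and 5 in the luminal-labelled ones. Of the 10 luminal markers, 6 and 7 were. Over all 17787 genes, 8728 were lower in the basal-labelled libraries and 9670 in the luminal-labelled ones. The part of cell composition in the keratin result was not tested. The keratins of simple epithelium differed less, with a median D of -0.02 over 5 genes, Krt8 at 0.82 and Krt19 at -1.50. Krt8 shares sequence with the pseudogene Krt8-ps, so its level is less certain.

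The kallikreins, secreted serine proteases of the skin surface that lie in 1 cluster on chromosome 7, were picked out after their values had been seen. Klk6 (ENSMUSG00000050063, 43824499 to 43832030) went from 7.12 FPKM with DMSO to 0.619 with baicalin in the basal-labelled libraries and from 3.65 to 28.2 in the luminal-labelled ones, a D of 4.98. Klk8 had 25.7 and 9.38 FPKM against 7.01 and 24.3, and Klk10 had 10.3 and 3.27 against 3.73 and 9.88. Klk14 had 1.94 and 0.272 FPKM against 1.38 and 6.82. Each of the 4 was higher in the basal-labelled library with DMSO, and each was higher in the luminal-labelled library with baicalin. Klk7 had 1.81 and 0.598 FPKM against 4.55 and 35.5, with a change that did not reach -1 in the basal-labelled libraries, and Klk11 had at most 1.58 FPKM. Klk8, Klk10 and Klk14 overlap another annotated transcript and the sources do not say whether fragments were counted by strand, so their levels are less certain. Of the 38 genes, 11 had another of the 38 within 1 Mb, in the kallikrein cluster, in the metalloproteinase cluster of chromosome 9 and in the keratin pairs on chromosomes 11 and 15. These are neighbouring genes of the same families. Other genes were not counted this way, so the count only describes where the 38 lie.

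The class held 3 matrix metalloproteinases, which cut collagens and other matrix proteins. Mmp3 (ENSMUSG00000043613, chromosome 9, 7445822 to 7455975), stromelysin, had 32.2 and 6.02 FPKM in the basal-labelled libraries and 9.49 and 43.5 in the luminal-labelled ones, a D of 4.33 and a ratio of ratios of 24.6 (20.3 to 29.7). Mmp10, a second stromelysin, had 15.1 and 2.61 FPKM against 0.960 and 5.91. Mmp13, a collagenase, had 53.4 and 9.11 FPKM against 1.31 and 3.93, and unlike the stromelysins it stayed higher in the basal-labelled library with baicalin. Of 20 matrix proteases and inhibitors tested, 10 had a D above 1, 4 had a D below 0 and 0 had a D below -1. Over all 17787 genes, 9747 had a D below 0. Of the 20, 8 were higher with baicalin in the basal-labelled libraries, with list medians of -0.68 in the basal-labelled libraries and 0.69 in the luminal-labelled ones. Timp1, an inhibitor of these proteases, had 74.9 and 13.6 FPKM against 24.6 and 43.7. Plau, the urokinase that activates plasminogen, had a D of 1.90. Serpinb2, which inhibits urokinase, had a D of 2.15 and lay just outside the opposite class with changes of -1.15 and 0.9994.

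Inflammatory mediators followed. Il1a (ENSMUSG00000027399, chromosome 2, 129299610 to 129309972), the alarm cytokine interleukin 1 alpha, had 39.3 and 13.5 FPKM in the basal-labelled libraries and 1.81 and 18.4 in the luminal-labelled ones, a D of 4.26. Il1rn, which encodes the receptor antagonist that blocks it, had 8.76 and 2.26 FPKM against 2.08 and 6.99. Ccl2, a chemokine that draws monocytes, had 33.6 and 4.03 FPKM against 1.18 and 4.04, so that a large gap with DMSO closed with baicalin. Cxcl2, which draws neutrophils, had 32.5 and 14.6 FPKM against 3.52 and 11.9. Tnf had 54.4 and 39.4 FPKM against 6.46 and 28.2, a D of 2.42 that came from the luminal-labelled libraries. The cytokine list, 23 genes of the interleukin 1 and TNF families and of NF-κB feedback, had 14 genes with a D above 1 and a median D of 1.09, and the chemokine list had 8 of 16 and 1.05. Il33, an alarmin of the same interleukin 1 family, went the other way. It had 0.471 and 0.171 FPKM against 35.2 and 3.36, a D of -2.73.

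Genes of squamous differentiation, which build the cornified envelope, mostly had a D above 0, as 15 of the 17 tested did. Over all 17787 genes, 8040 had a D above 0. Sprr1a, an envelope precursor, had 5.87 and 0.856 FPKM in the basal-labelled libraries and 15.8 and 64.0 in the luminal-labelled ones. Dmkn, the secreted epidermal protein dermokine, had 6.04 and 0.585 FPKM against 81.6 and 246. Dsg3, a desmosomal cadherin of basal keratinocytes named after its values were seen, had 23.1 and 8.68 FPKM against 70.8 and 173. The squamous list had 17 of its 26 genes tested, 11 of the 17 had a D above 1, 4 were of the opposite class and 3 were higher with baicalin in the basal-labelled libraries, with medians of -0.50 in the basal-labelled libraries and 0.99 in the luminal-labelled ones. Sprr1b and Krtdap, further envelope and keratinocyte genes, were left out because a library had an FPKM of 0. Sfn, the epithelial 14-3-3 protein, was the gene just inside the opposite class by its change of -1.003 in the basal-labelled libraries, and part of it is shared with the pseudogene Gm7850.

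The other genes of the class had varied roles. Nt5e (ENSMUSG00000032420, chromosome 9, 88327197 to 88372092), the ectoenzyme CD73 that makes adenosine from AMP, had 54.8 and 26.3 FPKM in the basal-labelled libraries and 14.5 and 39.8 in the luminal-labelled ones, a D of 2.43. Of 13 adenosine-pathway genes it was the only one with a D past 1, and their median D was -0.08. Tnc, the matrix glycoprotein tenascin C, had 111 and 29.6 FPKM against 52.0 and 133, and its 4664 to 21266 fragments per library gave a ratio of ratios of 9.57 (9.18 to 9.98). Ly6a, which encodes the surface antigen Sca1 used to sort hormone-sensing luminal cells, had 50.6 and 23.2 FPKM against 28.0 and 78.1. Stmn2, a tubulin-binding stathmin known from neurons, had 5.52 and 0.343 FPKM against 1.74 and 10.1. Stfa3, a stefin that inhibits cathepsins, rested on 2 to 124 fragments per library, and its ratio of ratios of 119 had an interval of 20.7 to 1134. Casq2 rested on 1 fragment in the basal-labelled baicalin library, with a ratio of ratios of 192 (32.5 to 7716). C1s1, H3f3c, Gm47283 and the small RNA Gm24727 have near-identical copies and are uncertain.

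The 3 genes with the reverse pattern were Btn1a1, Csdc2 and Gm25777. Btn1a1, butyrophilin, a protein of the milk fat globule membrane, had 4.33 FPKM with DMSO and 11.4 with baicalin in the basal-labelled libraries and 9.93 and 3.93 in the luminal-labelled ones, a D of -2.37 and a ratio of ratios of 0.150 (0.126 to 0.180). Csdc2, a cold-shock-domain RNA-binding protein, had 2.88 and 7.85 FPKM against 5.19 and 1.77, a D of -2.35. Both genes crossed, with the luminal-labelled library higher with DMSO and the basal-labelled library higher with baicalin. Gm25777, a small nucleolar RNA, rested on 2 to 14 fragments per library.

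**Figure D2:**
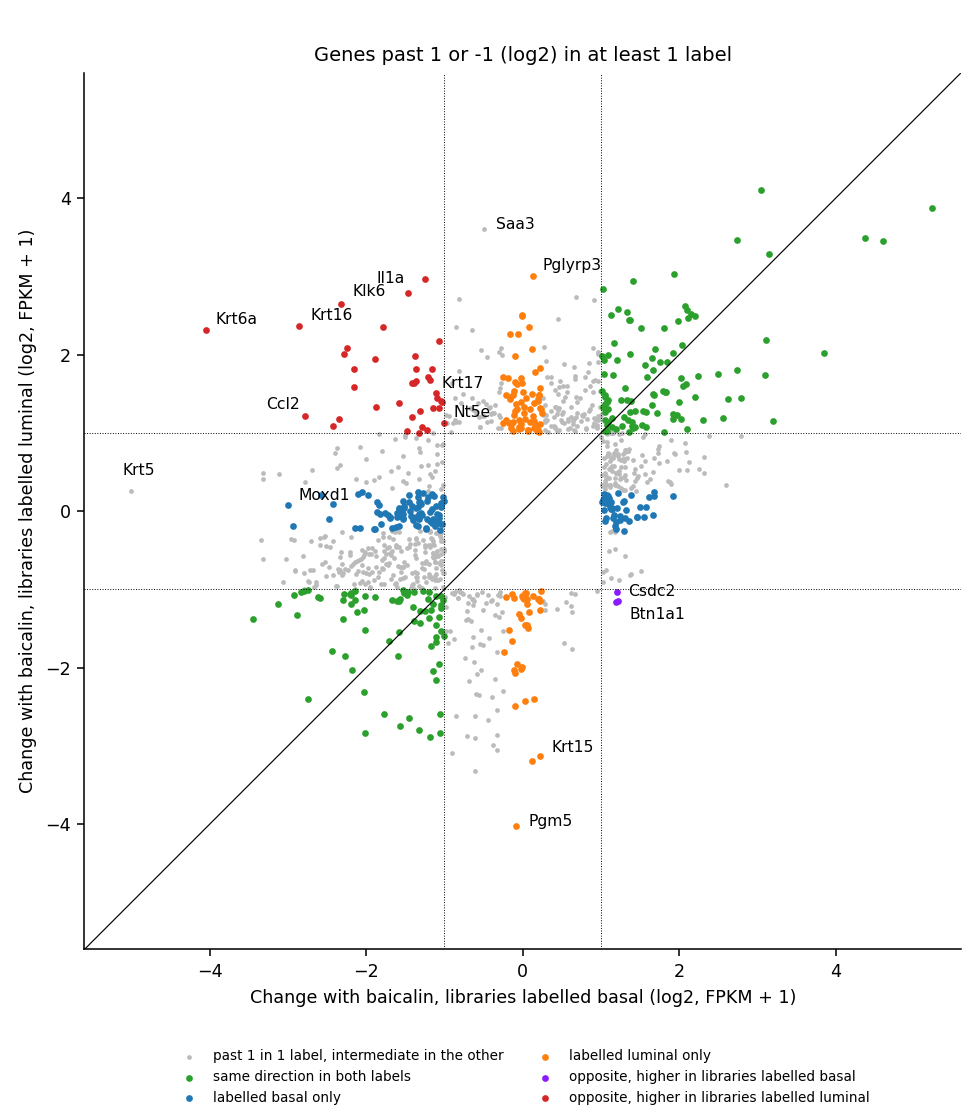
Change with baicalin in the basal-labelled libraries (x axis) and in the luminal-labelled ones (y axis), both log2 of FPKM + 1, for the genes past 1 in at least 1 label that reached 5 FPKM in a library; dotted lines mark 1 and -1 and the diagonal marks equal changes. The red points at the upper left are the 38 genes of the opposite class, and the purple points at the lower right the 3 genes of the reverse.

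Genes that moved in 1 label only were those past 1 in that label and between -0.25 and 0.25 in the other. In the luminal-labelled libraries, 68 genes were higher (0.743% of the 9154) and 37 lower (0.404%), and in the basal-labelled ones 51 were higher (0.557%) and 84 lower (0.918%). These narrow classes stood beside 103 genes higher in both labels (1.13%) and 74 lower in both (0.808%). A further 632 genes (6.9%) were past 1 in 1 label and between the band and the threshold in the other, so being in no narrow class says little about a gene.

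Of the 68 genes higher only in the luminal-labelled libraries, 47 were higher in the basal-labelled library with DMSO, where 4835 of the 9154 were. The class needs a rise from the luminal-labelled DMSO library, which favours this order. Pglyrp3, a peptidoglycan recognition protein of skin, had 71.5 and 78.4 FPKM in the basal-labelled libraries and 7.93 and 70.4 in the luminal-labelled ones. Gdnf, a neurotrophic factor, had 14.9 and 15.8 FPKM against 1.63 and 12.4. Adam8, a membrane metalloproteinase, had 9.42 and 8.31 FPKM against 3.97 and 22.8. In these 3 genes the luminal-labelled library came near to or past a level that the basal-labelled libraries held in both treatments. Nfkbia and Tnfaip3, the feedback inhibitors of NF-κB, were of the same class, with 51.6 and 114 FPKM and with 5.20 and 16.3 FPKM in the luminal-labelled libraries. Nupr1, a stress-response factor, had 267 and 257 FPKM against 38.2 and 87.2. In 13 of the 68 genes both basal-labelled libraries were under 1 FPKM. Defb14, Prl2c5 and Ces2f were among them, with at most 5 fragments per library there, and the interval of Defb14 held 1, at 0.510 to 127. Prl2c5 has near-identical copies, Prl2c2 and Prl2c3, and its level is uncertain. Saa3, an acute-phase serum amyloid, missed the class through a change of -0.49 in the basal-labelled libraries, but at 5.35 and 3.52 FPKM against 0.238 and 14.01 it had a change of 3.60 in the luminal-labelled libraries and a D of 4.09.

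Of the 37 genes lower only in the luminal-labelled libraries, 33 were higher in the luminal-labelled library with DMSO, where 4319 of the 9154 were. The class needs a fall from that library, which favours this order, so the order is no separate result. In 15 of the 37 both basal-labelled libraries were under 1 FPKM. Pgm5 (ENSMUSG00000041731, chromosome 19, 24683016 to 24861855), a phosphoglucomutase-like protein of muscle adhesions, had 0.419 and 0.341 FPKM against 26.8 and 0.711, and its D of -3.94 was the lowest of all genes. Frem2, a basement membrane protein, had 0.190 and 0.286 FPKM against 10.8 and 0.296. Cited1, a transcriptional cofactor of hormone-sensing cells, had 0.0574 and 0.169 FPKM against 7.36 and 0.580, a ratio of ratios of 0.0268 (0.00258 to 0.167). Their fold changes differed beyond counting error, but the same libraries chose these genes, so this is no separate support. For Atp2a3, a calcium pump, and Cnn1, the smooth muscle protein calponin, the intervals held 1, at 0.0502 to 18.0 and 0.318 to 107, since 1 fragment lay behind each in the basal-labelled baicalin library.

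Low levels mattered at this end. Of the 12 genes with the lowest D, 10 were under 1 FPKM in both basal-labelled libraries, whereas 0 of the 12 with the highest D were. Col14a1, a fibril-associated collagen with 108 and 12.7 FPKM in the luminal-labelled libraries, had 0.316 and 0.00700 in the basal-labelled ones, and its D of -2.60 became 2.41 without the added FPKM. Its ratio of ratios was 5.31 (0.903 to 214). Lgr5, a Wnt-pathway receptor of stem cells, likewise had a D of -2.22 and 0.86 without the added FPKM, with 17.7 and 1.93 FPKM in the luminal-labelled libraries. For genes this low in the basal-labelled libraries, D describes the luminal-labelled libraries alone. Emid1, an extracellular matrix protein, and Cxcr4, a chemokine receptor, also lay at this end, with a D of -2.71 and -2.54 and intervals that excluded 1.

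**Figure D3:**
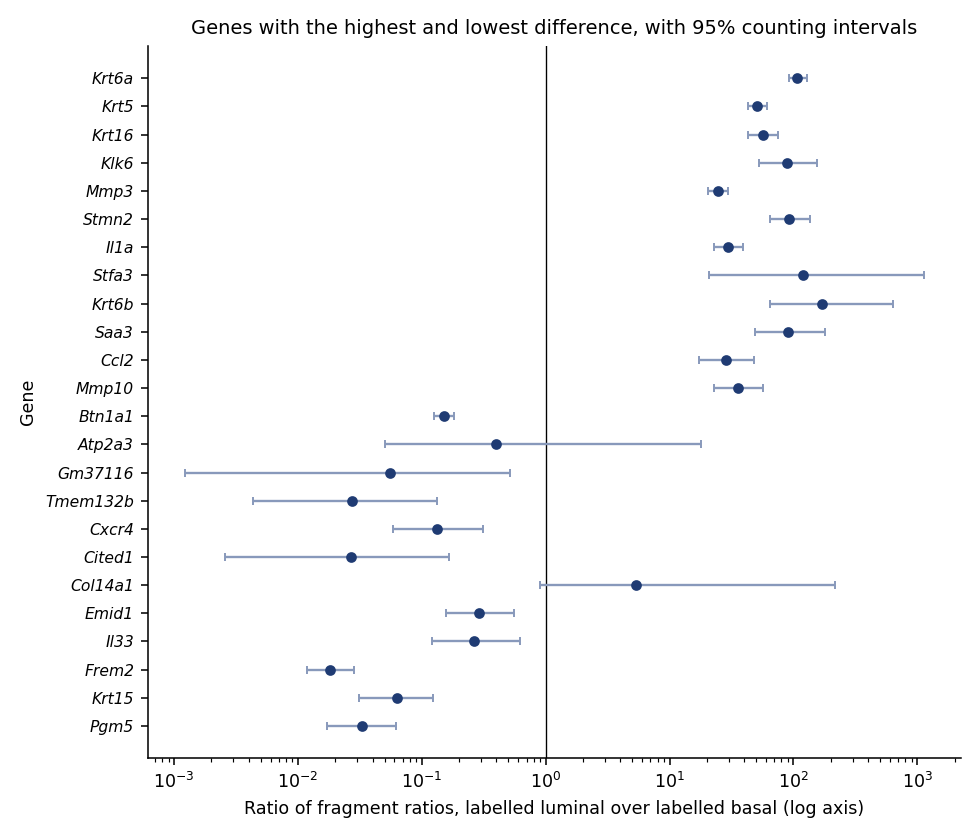
Ratio of ratios of fragments, the baicalin over DMSO ratio in the luminal-labelled libraries over that in the basal-labelled ones, on a log axis, for the 12 genes with the highest and the 12 with the lowest D, ordered by D; bars are exact 95% intervals of counting error and the line marks 1. All 12 upper intervals lie above 1, while those of Atp2a3 and Col14a1 among the lower genes cross it.

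The 84 genes lower only in the basal-labelled libraries included regulators of basal cells, interferon-response genes and sterol enzymes. Moxd1, a monooxygenase, had 16.7 and 1.22 FPKM against 78.5 and 82.6 in the luminal-labelled libraries, a D of 3.07. Pthlh, parathyroid hormone-related protein, which acts in mammary bud development, had 11.1 and 1.03 FPKM against 7.66 and 8.94. Cxcl10, an interferon-induced chemokine, had 15.7 and 1.18 FPKM against 1.70 and 1.35. Trp63 was in this class, as was Nkd2, a feedback inhibitor of Wnt signalling, with 43.1 and 9.61 FPKM against 93.8 and 111. Of the 84 genes 78 were protein-coding, close to the share over all genes, 8554 of the 9154. The class had a median FPKM of 11.98 with DMSO and 3.40 with baicalin in the basal-labelled libraries.

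Of the 51 genes higher only in the basal-labelled libraries, 29 were protein-coding and 13 were pseudogenes. Of all 9154 genes, 8554 were protein-coding and 376 were pseudogenes. Stc2, a secreted stanniocalcin induced by ATF4, had 6.70 and 23.5 FPKM against 13.1 and 15.6. Tecpr1, a protein of autophagosome maturation, had 2.41 and 9.47 FPKM against 2.31 and 2.75. Gm7536 and Gm6061 are nearly identical to many other loci and their levels are uncertain, and Gm26287 rested on at most 10 fragments per library.

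Gene lists, chosen with earlier results of these data known, show which programmes lay at the ends. Their counts are set beside 4.41% of all 17787 genes with a D above 1 and 2.65% with a D below -1, and no list was tested. Of the 17787 genes, 8040 had a D above 0. Interferon-stimulated genes, the antiviral effectors switched on by type I interferon, had a D above 0 in all 39 genes tested and above 1 in 32. Their median change was -1.62 in the basal-labelled libraries and -0.22 in the luminal-labelled ones. Isg15, a ubiquitin-like modifier, had 61.1 and 6.46 FPKM against 6.77 and 3.14. Ifit1, which binds viral RNA, had 19.3 and 1.504 FPKM against 1.30 and 0.510, and Oasl2 had 23.2 and 2.19 against 1.65 and 1.06. In each of these genes the basal-labelled library with DMSO was the high one and the other 3 were low. Gbp3, a guanylate-binding protein, had 20.7 and 1.13 FPKM against 1.76 and 1.14, and 8 of 12 such GTPases had a D above 1.

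MHC class I genes, which present peptides to T cells, had smaller differences that all pointed one way. All 16 were lower with baicalin in the basal-labelled libraries and 15 were higher in the luminal-labelled ones, with a median D of 0.80, and 6 had a D above 1. Only 3 were past -1 in the basal-labelled libraries and 0 past 1 in the luminal-labelled ones. Over all 17787 genes 8728 were lower in the basal-labelled libraries, 8115 higher in the luminal-labelled ones, and 7226 of opposite sign in the labels. B2m, the light chain, had 513 and 308 FPKM against 300 and 429. Psmb8, an immunoproteasome subunit, had 19.1 and 6.29 FPKM against 8.21 and 11.9. Ptprc had no more than 0.0138 FPKM in any of the 4 libraries.

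Mitotic genes were lower in both labels and further down in the basal-labelled libraries. All 30 were lower by more than 1 there, against 3.33% of all genes, and 7 of the 30 in the luminal-labelled libraries, against 1.59%. The median changes were -2.33 and -0.78, and 29 of the 30 had a D above 1. Plk1, a mitotic kinase, had 25.1 and 2.47 FPKM against 16.1 and 9.12. Mki67, which coats mitotic chromosomes, had 54.0 and 4.06 FPKM against 68.6 and 25.9, and Cdc20, an activator of the anaphase-promoting complex, had 32.2 and 4.20 against 33.9 and 19.8. Cdc20 had nearly the same level in both labels with DMSO. For DNA replication genes the labels were closer, with medians of -1.25 and -0.75, and 8 of 38 had a D above 1.

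Sterol-synthesis genes had changes of mostly opposite sign, and small ones in the luminal-labelled libraries. All 22 were lower with baicalin in the basal-labelled libraries and 16 were higher in the luminal-labelled ones, with medians of -0.66 and 0.22, and 9 had a D above 1. Only 5 of the 22 were past -1 in the basal-labelled libraries and 0 past 1 in the luminal-labelled ones. Of all 17787 genes, 8728 were lower in the basal-labelled libraries, 8115 higher in the luminal-labelled ones, and 7226 of opposite sign. Nsdhl had 26.4 and 9.88 FPKM against 29.6 and 35.4, and Cyp51, lanosterol demethylase, had 59.7 and 23.5 against 54.9 and 59.5. Nsdhl and Cyp51 had similar levels in both labels with DMSO. The sterol regulatory element, searched as ATCAC, 1 base of any kind and CCAC, stood in 0 of 16 genes of the list with a promoter and in 0.258% of all.

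**Figure D4:**
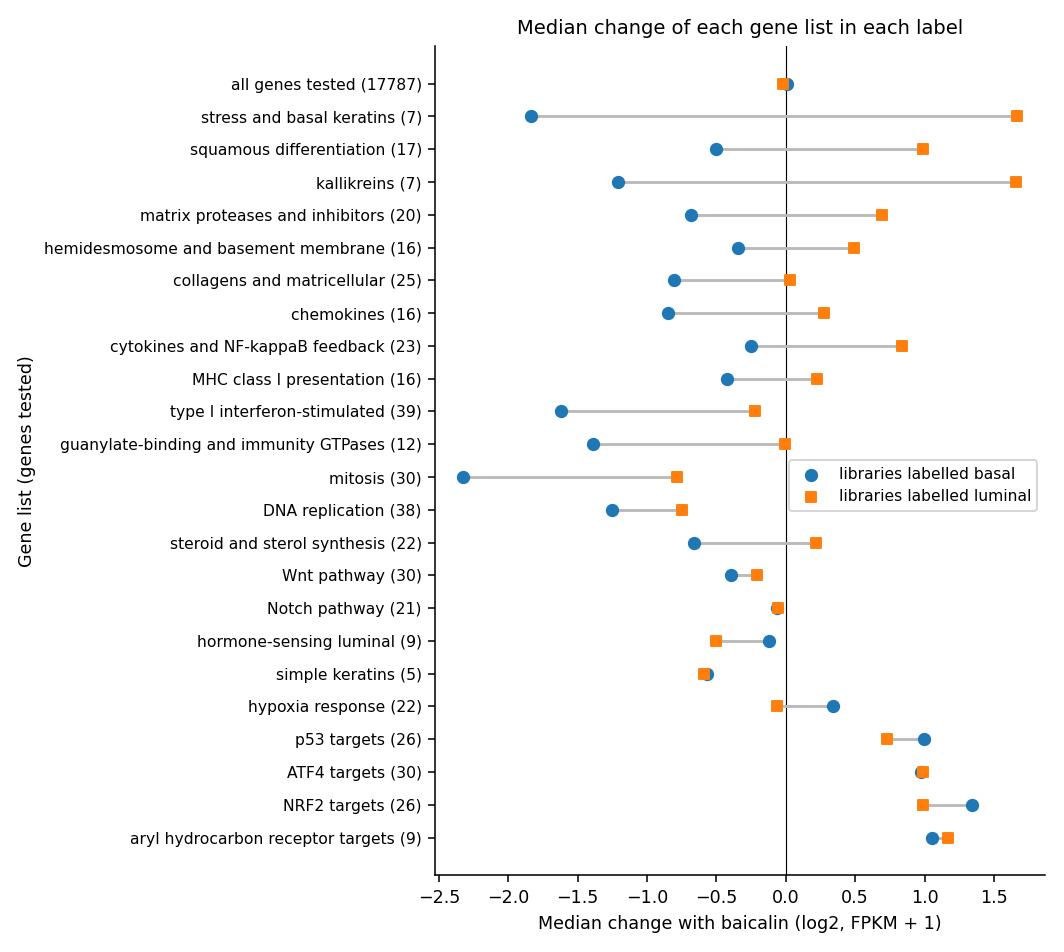
Median change with baicalin, log2 of FPKM + 1, of each gene list in the basal-labelled libraries (blue circles) and in the luminal-labelled ones (orange squares), with the number of genes tested in brackets. Stress and basal keratins, kallikreins and matrix proteases span 0, interferon, guanylate-binding and mitosis lists are lower mainly in the basal-labelled libraries, and the NRF2, ATF4, p53 and aryl hydrocarbon receptor lists are higher in both.

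Genes that anchor the epithelium to its matrix mostly had a D above 0, with smaller changes than the stress keratins. Col17a1, the hemidesmosomal collagen, had 23.2 and 1.42 FPKM in the basal-labelled libraries and 193 and 272 in the luminal-labelled ones, a D of 3.82. Lama3, a laminin 332 chain, had 15.4 and 11.3 FPKM against 29.97 and 76.8. Of 16 hemidesmosome and basement membrane genes 15 had a D above 0 and 7 a D above 1, but 0 were of the opposite class, 2 were past -1 in the basal-labelled libraries and 2 past 1 in the luminal-labelled ones, with medians of -0.34 and 0.49. Of 25 collagens and matricellular genes 22 had a D above 0 and 10 a D above 1. Over all 17787 genes, 8040 had a D above 0. Snai2, a transcription factor of basal cells and of epithelial-mesenchymal transition, had 4.26 and 0.415 FPKM against 19.0 and 25.2, a D of 2.29. Of the 10 basal markers, 9 were lower with baicalin in the basal-labelled libraries beside these genes, where 8728 of all 17787 genes were. The part of these markers was not tested. Jag1, a Notch ligand, had 28.0 and 13.7 FPKM against 74.1 and 175, although the 21 Notch genes had a median D of 0.09. Aldh1a3, a retinal dehydrogenase of luminal progenitors, had 173 and 97.8 FPKM against 46.4 and 163.

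Stress lists were higher with baicalin in both labels. The median changes of 26 NRF2 targets, the antioxidant and detoxifying genes, were 1.34 and 0.99, those of 30 ATF4 targets 0.97 and 0.99, and those of 26 p53 targets 0.996 and 0.73. A D below -1 was found for 3 NRF2, 2 ATF4 and 2 p53 targets, and a D above 1 for 3 ATF4 targets and 0 of the other lists. One of the 3 NRF2 targets was Gsta1, a glutathione transferase with 1 fragment in the luminal-labelled DMSO library. Its D of -1.36 turned to 0.60 without the added FPKM, and its ratio of ratios was 1.52 (0.169 to 72.1). Gsta1 has near-identical copies, Gsta2 among them, and its level is uncertain. Gclm, the modifier subunit of glutathione synthesis, had 12.1 and 47.3 FPKM against 31.1 and 40.6, a D of -1.51, and Gdf15, a stress cytokine, had 3.26 and 60.6 against 1.51 and 9.15. Gstm1, a glutathione transferase with a near-identical pseudogene, had 20.4 and 54.1 FPKM against 98.5 and 55.5, opposite in sign. Btg2 and Trp53inp1, both p53 targets, had a D of -1.46 and -1.19. Hypoxia-response genes were split, with Ndrg1 at 28.2 and 52.0 FPKM against 46.2 and 23.1, a D of -1.83, and Adm, adrenomedullin, at 16.7 and 32.3 against 2.97 and 24.6, a D of 1.78. Fos, a subunit of AP-1, had 30.6 and 45.8 FPKM against 59.7 and 29.8, a D of -1.55, while the 25 AP-1 and immediate-early genes had a median D of 0.18. Of 9 hormone-sensing genes tested, Cited1 and Foxa1 had a D below -1 and Ly6a and Prom1 a D above 1. Foxa1, a pioneer factor of the oestrogen receptor, had 1.80 and 1.35 FPKM against 9.30 and 1.09.

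**Figure D5:**
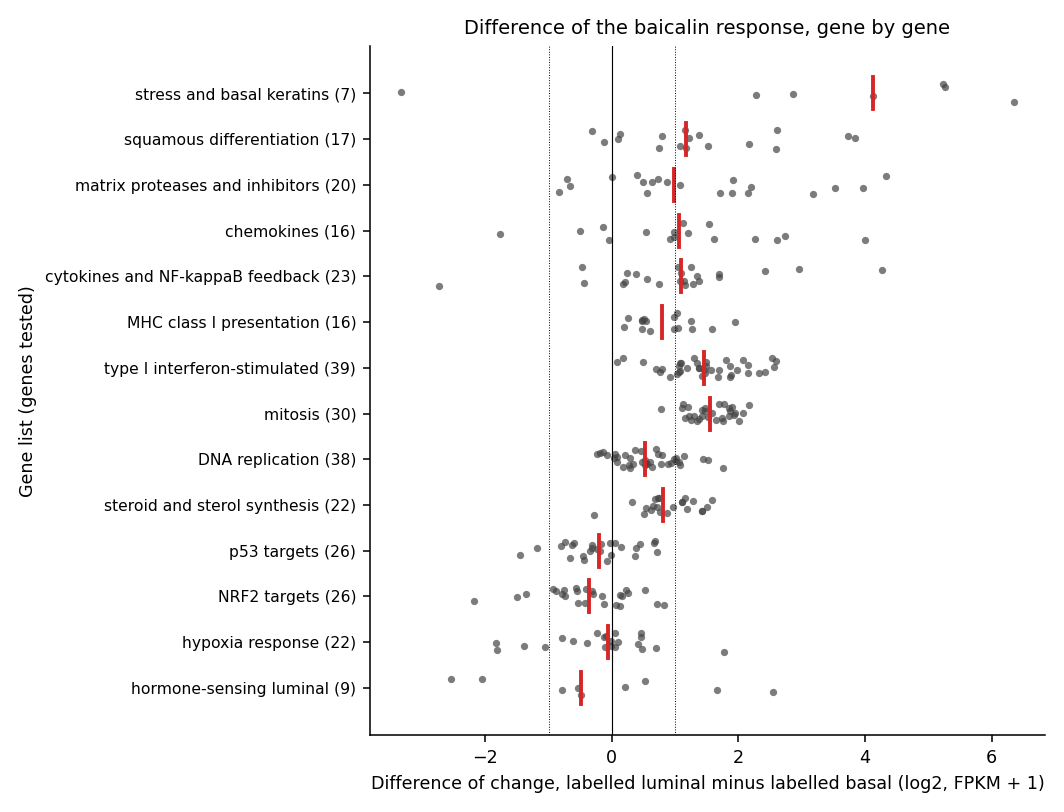
D of every gene of 14 lists, log2 of FPKM + 1, 1 point per gene, with the list median in red and dotted lines at 1 and -1; vertical position within a list only separates points. All interferon-stimulated and mitotic points lie above 0, while NRF2 and p53 targets lie on both sides.

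Around the thresholds the values ran without a step. Parp3 and Gm15564 lay just above a D of 1 at 1.001 and 1.0004, and Ctsh just below it at 0.998. Lypd3 was just inside the opposite class by its change of 1.002 in the luminal-labelled libraries, and Gm6087 just outside with -1.83 and 0.98.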

How the data were processed

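RNA of 3D-cultured mouse mammary cells was sequenced in 4 libraries, 1 each of cells labelled basal or luminal, with DMSO or 100 μM baicalin. Per the paper's methods, the authors aligned reads to GRCm38 with HISAT2, counted them per Ensembl release 94 gene with featureCounts 1.5.0, and deposited FPKM. The submitters' processing notes name Bowtie 0.12.2 and the builds mm8 and GRCm38. The strand setting is not given in the sources used here. Exon lengths and positions came from GENCODE release 21 on GRCm38 for 54409 of 54446 genes. FPKM multiplied by exon length fell within 0.1 of a whole fragment for 98.5% to 98.8% of low genes, which gave depths of 19354268 to 20647778 fragments.

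D was computed for genes above 0 in all 4 libraries, with 1 FPKM added. With 1 library per condition no test was made. Intervals on the ratio of ratios are exact conditional 95% intervals of the fragments and cover counting error only. Genes with 95% identity to another transcript over a large share of their bases are named as uncertain. Promoters came from RefSeq on GRCm38.p6. The members, the 36 gene lists and the naming rule were chosen with earlier results of these data known. The rule takes the 12 highest and lowest D, the 8 largest opposite genes per direction, the 6 largest per label and direction among genes of 1 label only, 3 genes per list, and the markers. Other genes of the opposite and 1-label classes, and further genes (Timp1, Plau, Serpinb2, B2m, Tnf, Isg15, Ifit1, Cdc20, Dsg3, Prom1 and the kallikreins) were named after their values were seen. Alternatives were other pseudocounts, filters, bands and thresholds, TPM and centring on the median. The computation was tested on simulated data. Versions were Python 3.11.15, matplotlib 3.10.9, numpy 2.4.6, scipy 1.17.1 and pandas 2.3.3.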

Additional observations from a re-analysis of the deposited data

Results flagged for a closer look

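Genes and lists that moved one way in the basal-labelled libraries and the other way in the luminal-labelled ones stood out, and with 1 library per condition the difference was not tested for any of them. They number 38 genes with the luminal-labelled libraries higher and 3 with the basal-labelled libraries higher. Ranked by the smaller of their changes in the labels, the first 8 of the 38 were Krt6a, Krt16, Klk6, Mmp3, Stmn2, Krt6b, Mmp10 and Sprr1a. Their D values, not in the order of that ranking, were 6.36, 5.23, 4.98, 4.33, 4.29, 4.13, 3.97 and 3.84. Il1a, Stfa3 and Ccl2, also of the 38, had a D of 4.26, 4.21 and 3.99. The reverse genes had a D of -2.37 for Btn1a1, -2.35 for Csdc2 and -2.23 for Gm25777. Of the lists, the median D was 4.13 for stress and basal keratins, 1.17 for squamous differentiation and 0.98 for matrix proteases and inhibitors, each with a negative median change in the basal-labelled libraries and a positive one in the luminal-labelled ones.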

How the results depend on the processing

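Directions held far better than counts, but a turn was looked for only in genes with a D past 1 or -1. For lists, a turn was looked for only in medians further than 0.1 from 0. The median D of simple keratins, nearer 0, went from -0.02 to 0.09 with a pseudocount of 0.1. Over all genes tested, 784 genes had a D above 1 and 472 a D below -1. With a pseudocount of 0.1 these counts were 1699 and 1569, with none 2322 and 2284, on TPM 1311 and 978, and with a threshold of 2 they were 133 and 37. A unit of TPM is smaller than a unit of FPKM, so the added 1 weighs less there. The 41 genes of opposite directions became 72 with a pseudocount of 0.1, 77 with none and 5 with a threshold of 2. The 105 genes moved in the luminal-labelled libraries only became 16 with a threshold of 2, 61 with an FPKM of at least 10 and 188 with a band of 0.5, and the 135 of the basal-labelled libraries only became 9, 87 and 268. Without a pseudocount the D of Cnn1 turned to 1.27, of Gsta1 to 0.60, of Lgr5 to 0.86 and of Col14a1 to 2.41, genes with few fragments in a library. With a mean FPKM of at least 1 the list medians of myoepithelial genes and of alveolar and milk genes turned to -0.52 and -0.26, on fewer genes. Of the other values, 795 of single genes and 169 of list medians moved by less than a margin, and 142 and 45 moved by more. The margin was the half-width of the gene's counting interval on the log2 scale, or 0.25 for a median. No paired analysis was possible because each condition has 1 library and the labels give no replicate numbers. Depth limits the lowest D most, where 10 of 12 genes were under 1 FPKM in both basal-labelled libraries.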

Other observations

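Genes at 0 in a library had no D, and 31 of them reached an FPKM of at least 5 in another, 17 of them protein-coding. Sprr1b, an envelope precursor, was listed at 0 in both basal-labelled libraries and had 2.61 FPKM with DMSO and 23.2 with baicalin in the luminal-labelled ones. Krtdap, a keratinocyte differentiation protein, had 0.519 FPKM and was listed at 0 with baicalin in the basal-labelled libraries, and had 10.3 and 30.1 in the luminal-labelled ones. Both were higher with baicalin in the luminal-labelled libraries.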
